A study of Homo sapiens with 12 samples.

Results

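Collagen is hydroxylated inside the cell and crosslinked outside it by 2 enzyme families, and the RNA of all 8 of their genes was followed here in human fibroblasts made senescent by irradiation. The genes were the lysyl oxidase LOX, its relatives LOXL1, LOXL2, LOXL3 and LOXL4, and the lysyl hydroxylases PLOD1, PLOD2 and PLOD3. They were taken by gene symbol from the deposited table, which held 16383 genes, and all 8 were found and passed the filter for testing. The cells were IMR90, an established line of human lung fibroblasts, labelled wild type in every group. The 4 groups had 3 libraries each. Proliferating cells (Prolif) received no treatment. The others received 20 Gy of ionizing radiation over 10 min and then DMSO, the solvent control (Sen_DMSO), 2 µM palbociclib (Sen_Palbo) or 2 µM ruxolitinib (Sen_Ruxo). Palbociclib inhibits the cyclin-dependent kinases CDK4 and CDK6, and ruxolitinib inhibits the Janus kinases JAK1 and JAK2. The inhibitors were given on days 4, 6, 8 and 10, and irradiated cells were harvested on day 11. No label gives the day on which proliferating cells were harvested, and no proliferating cells received DMSO or an inhibitor.

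Lysyl hydroxylases act in the endoplasmic reticulum, where they hydroxylate lysines of newly made procollagen chains. After secretion, the copper-dependent lysyl oxidases turn lysines and hydroxylysines of collagen, and lysines of elastin, into reactive aldehydes that condense into crosslinks between neighbouring molecules. Hydroxylation of lysines in the collagen telopeptides, for which PLOD2 is known, favours the stable pyridinoline type of crosslink that is abundant in stiff and fibrotic tissue.

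Values are normalized counts, that is, read counts divided by a factor for each library. Whole reads recovered from them summed to 14106799 to 21762412 per library over the listed genes, and the coefficient of variation between the 3 libraries of a group was 0.532% to 14.4% for the 8 genes. Nothing in the labels says that the libraries of a group came from separate cultures, so p-values measure only the spread between these libraries, which may be technical. All 10 fibroblast markers had a mean of at least 10 normalized counts in every group, and their sum, mostly collagen, ran from 815765 to 846570 in proliferating cells, 399427 to 410164 with DMSO, 506143 to 509975 with ruxolitinib and 632053 to 659987 with palbociclib. Of the markers of other cell types PTPRC, CD3E, CDH5, SFTPC, KRT5 and MYH11 were below 5 normalized counts on average in every group. Others were low but present: EPCAM had means of 20.6 to 32.3 in the 4 groups, CDH1 of 14.0 with palbociclib, VWF of 19.1 to 26.0 in the irradiated groups, PECAM1 of 10.7 and 12.9 with DMSO and ruxolitinib, and CD14 of 13.0 to 28.2 in the irradiated groups. ITGAM had means of 11.5 with ruxolitinib and 8.78 with DMSO, and lower ones in the other groups. The 4 smooth muscle markers, carried by ACTA2 and CNN1, summed to 19346 to 20335 in proliferating cells, 6808 to 7494 with DMSO, 6181 to 6347 with ruxolitinib and 15942 to 18123 with palbociclib. The 8 epithelial markers, mostly KRT18, summed to 3620 to 4239 with palbociclib and 1803 to 2544 in the other groups. The 5 endothelial markers, almost all TEK, ran from 3501 to 4380 with palbociclib and from 1681 to 2554 elsewhere, and the 6 leukocyte markers, mostly CD68, from 1088 to 1316 with DMSO or ruxolitinib and from 543.7 to 807.4 in the other groups. The part of these marker changes in the results below was not tested. In bulk RNA, fewer cells of a kind and less RNA per cell cannot be told apart. The summed normalized counts differed between groups, and scaling every library to the same total moved the median gene from -0.05 to 0.18 on the log2 scale for DMSO against proliferating cells and from 0.02 to -0.21 for palbociclib against DMSO. The genes called higher and lower then became 5289 and 2970 in place of 3714 and 4420 in the first comparison, and 940 and 5176 in place of 2927 and 2505 in the second.

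LOX, LOXL4, PLOD1 and PLOD2 rose both after irradiation and with palbociclib. Promoter stretches of LOX and PLOD2 are shown first. Among the genes with a promoter entry, only these held ACGTG, a form of the core site that hypoxia-inducible factors are known to bind. Other forms of that core were not searched for, so promoters without a match here may hold them. The promoter is the 250 bases before the RefSeq start of the gene, and position -1 is the base before that start. Each window below is on the minus strand of GRCh38.p14 (RefSeq), 5′ to 3′, and capitals mark ACGTG or its reverse complement CACGT.
LOX chr5:122078428-122078457: cgctccctgtgcaACGTGtctggggggagg
LOX chr5:122078350-122078379: cttgCACGTttccaatcgcattACGTGaac
LOX chr5:122078284-122078313: gtaactttgcaaACGTGccagaaagtttaa
PLOD2 chr3:146161368-146161397: gcgtgagcctccaCACGTagccgcaggcag
PLOD2 chr3:146161314-146161343: gcaaacagtccagACGTGgggcccaggagg
LOX had 4 matches on either strand, starting at -185, -116, -98 and -42, and PLOD2 had 2, at -200 and -146. Of 27305 promoters of that length, 18.6% held the motif at least once, 7.63% at least 2 times and 0.71% at least 4 times. LOXL1, LOXL3, LOXL4, PLOD1 and PLOD3 held no match in this window, and 7 of the 8 genes had a promoter entry, LOXL2 being the exception. A STAT motif (TTCNNNGAA, in 6.8% of promoters) was found once, in LOXL3 at -223, and a SMAD motif (CAGAC, in 37.9%) once each in LOX at -181, LOXL1 at -161 and PLOD2 at -149, where those of LOX and PLOD2 overlap an ACGTG match. The E2F motif TTTNNCGC, in 5.9% of promoters, and the AP-1 motif TGANTCA, in 6.6%, were in none of the 7. These are matches of letters, and no factor binding was measured. The first LOX window lies upstream of the gene as annotated in GENCODE 44 (chr5:122063195-122078413). The other windows of LOX and both of PLOD2 (chr3:146035139-146163725) lie inside the annotated gene, because other transcripts start further upstream.

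After irradiation the 8 genes went in different directions. PLOD1, PLOD2, LOX and LOXL4 were higher in the DMSO group than in proliferating cells and LOXL1, LOXL2 and PLOD3 were lower. The counts were 4 of 8 called higher and 3 of 8 called lower at an adjusted p under 0.05, where 33.0% of all 11242 tested genes were called higher and 39.3% lower. The median log2 fold change of the 8 genes was 0.01, against -0.05 over all tested genes. The fall of PLOD3 was not called with libraries scaled to the same total, upper quartile or quantiles (adjusted p 0.0713 to 0.395), which left 4 higher and 2 lower. Over all genes these scalings gave, in that order, 5289 higher and 2970 lower of 11262, 4788 and 3386 of 11252, and 4205 and 3842 of 11237.

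Palbociclib raised most of these genes in irradiated cells. LOX, LOXL1, LOXL2, LOXL4, PLOD1 and PLOD2 were higher than with DMSO and LOXL3 was lower, which makes 6 of 8 called higher, where 26.0% of tested genes were, and 1 of 8 called lower, where 22.3% were. The median log2 fold change of the 8 genes was 0.56, against 0.02 over all tested genes. Scaled to the same total, 6 of 8 were higher and 2 lower, and after quantile normalization 6 were higher and LOXL3 was not called (adjusted p 0.0737). Over all genes the same total gave 940 higher and 5176 lower of 11262, and quantile normalization 2672 and 2255 of 11237. Quantile normalization also brought the log2 fold change of LOX down to 0.53, from 1.10. LOX was not alone in depending on the processing. Over the 23 alternative settings the lowest values were 0.35 for LOXL1 and LOXL2, 0.31 for LOXL4, 0.16 for PLOD1 and 0.33 for PLOD2. All of these genes stayed called higher in every setting.

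Ruxolitinib left 7 of the 8 genes uncalled against DMSO. LOXL2 alone was called, higher by 0.19 on the log2 scale, so that 1 of 8 was higher, where 1.10% of tested genes were, and 0 of 8 lower, where 3.42% were. At an unadjusted p under 0.05 limma gave 2 higher (LOXL1 and LOXL2) and 0 lower, but the share of all tested genes at that rule was not computed. At an adjusted p under 0.05 edgeR and DESeq2 each called 1 of 8 higher and 0 lower. Over all 11242 tested genes edgeR called 153 higher and 403 lower, and DESeq2 199 and 449. The median log2 fold change of the 8 genes was within 0.01 of 0, as was that of all tested genes. The call of LOXL2 was lost when any 1 of the 6 libraries compared was left out (adjusted p 0.061 to 0.141).

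**Figure D1:**
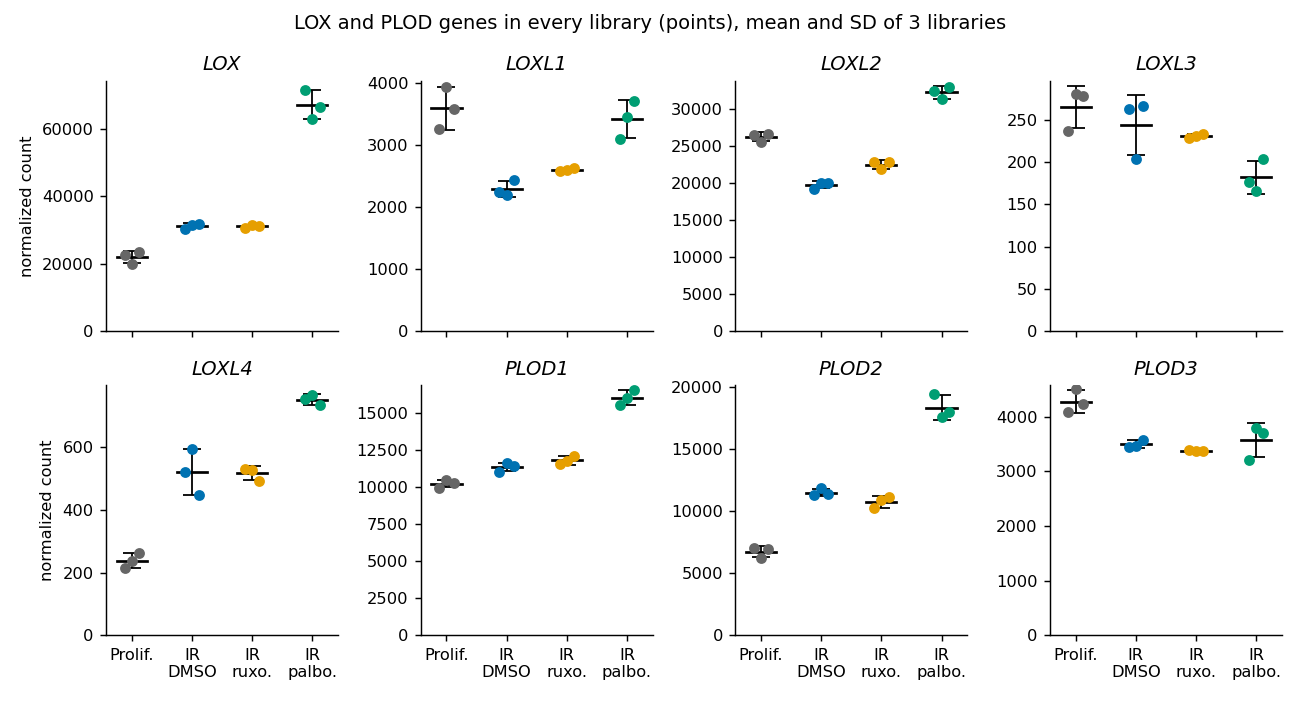
Normalized count of each of the 8 genes in every library (points, 3 per group), with the group mean and SD, each panel on its own linear axis from 0. In all panels but those of LOXL1, LOXL3 and PLOD3, the 3 palbociclib libraries lie above every other library. The share of all tested genes with that pattern was not computed.

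**Figure D2:**
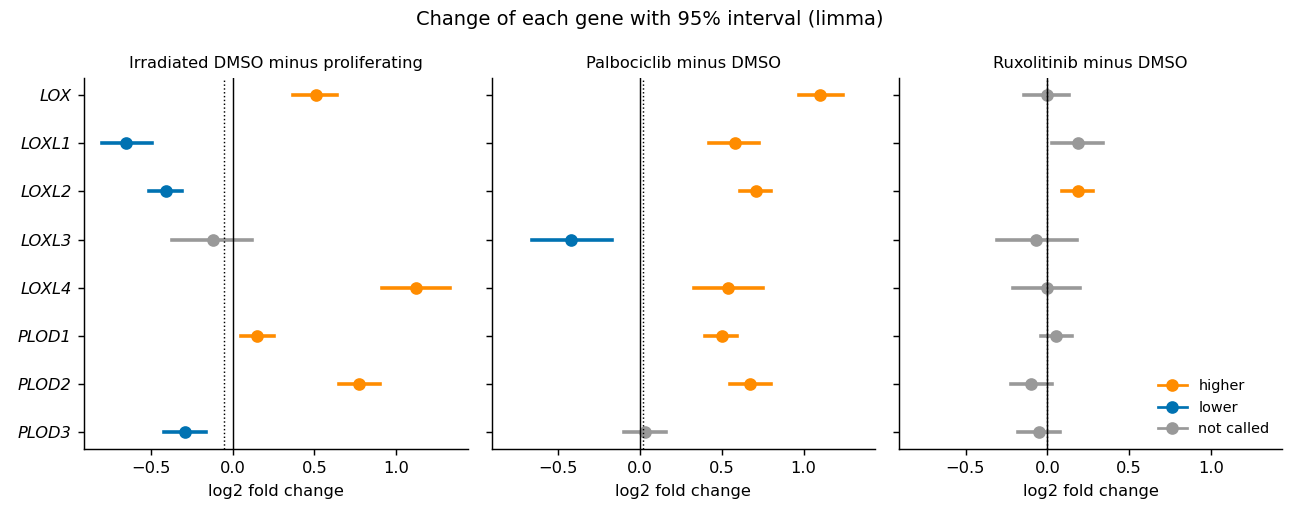
Log2 fold change of each gene with its 95% interval from the limma fit in 3 comparisons. Orange marks genes called higher, blue lower and grey not called at an adjusted p under 0.05, and the dotted line is the median over all 11242 tested genes.

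Among the lysyl hydroxylases, PLOD2 rose after irradiation and again with palbociclib. PLOD2 lies at chr3:146035139-146163725 on the minus strand of GRCh38, with 20 exons in its canonical transcript. Its normalized counts were 7025, 6217 and 6979 in proliferating cells, 11292, 11837 and 11354 with DMSO, 10226, 10862 and 11165 with ruxolitinib, and 19465, 17576 and 18000 with palbociclib. No 2 groups overlapped, and every irradiated library was above every proliferating one. The mean rose 1.71-fold from 6740 ± 454 (SD, n = 3) to 11494 ± 298 with DMSO (log2 fold change 0.77, SE 0.058, adjusted p = 8.65e-09). Palbociclib raised it a further 1.59-fold over DMSO to 18347 ± 991 (0.67, SE 0.058, adjusted p = 2.35e-07), which was 2.72-fold the proliferating level. With ruxolitinib the mean was 10751 ± 479, and the difference from DMSO was not called (-0.10, 95% interval -0.22 to 0.03, adjusted p = 0.472), although the 3 libraries were all below the DMSO ones. Fitted on those 2 groups alone, that difference had an adjusted p of 0.0491. That fit called 996 of 11424 tested genes lower, against 384 of 11242 in the fit of all 12 libraries.

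PLOD1, the first of the family and the enzyme lacking in the kyphoscoliotic form of Ehlers-Danlos syndrome, lies at chr1:11934205-11975538 on the plus strand. Its counts were 9941, 10438 and 10265 in proliferating cells, 11030, 11599 and 11392 with DMSO, 11512, 11717 and 12090 with ruxolitinib, and 15482, 16006 and 16491 with palbociclib. DMSO and ruxolitinib libraries overlapped, and the other groups stood apart. The rise after irradiation was small, with means of 10215 ± 252 and 11340 ± 288, a log2 fold change of 0.15 (SE 0.045, adjusted p = 0.00752). With palbociclib PLOD1 rose 1.41-fold over DMSO (0.50, SE 0.045, adjusted p = 4.36e-07). Its order was proliferating, DMSO, ruxolitinib, palbociclib, and DMSO and ruxolitinib did not differ beyond their spread (adjusted p = 0.637).

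PLOD3, which also transfers galactose and glucose to hydroxylysine, behaved unlike the other lysyl hydroxylases. It lies at chr7:101205977-101218420 on the minus strand and shares 102 exon bases (1.8%) with ZNHIT1 on the other strand. Its counts were 4092, 4508 and 4228 in proliferating cells, 3448, 3464 and 3578 with DMSO, 3399, 3367 and 3370 with ruxolitinib, and 3215, 3800 and 3708 with palbociclib. Every irradiated library lay below the proliferating ones, and the palbociclib libraries spanned both other irradiated groups. The mean was 4276 ± 212 in proliferating cells and 3496 ± 70.9 with DMSO (log2 fold change -0.29, SE 0.06, adjusted p = 0.000451). Palbociclib and DMSO did not differ beyond the spread (0.03, 95% interval -0.10 to 0.16, adjusted p = 0.723). Scaled to the same total, PLOD3 was instead called lower with palbociclib than with DMSO (-0.20, adjusted p = 0.014).

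The 3 genes were compared with each other per length, as normalized counts per kilobase of the canonical GENCODE 44 transcript. Summed over PLOD1, PLOD2 and PLOD3, this level was 6746 ± 74.0 in proliferating cells, 8116 ± 171 with DMSO, 8021 ± 217 with ruxolitinib and 11535 ± 122 with palbociclib. PLOD1 made up 50.9% of the sum in proliferating cells, 46.9% with DMSO and 46.6% with palbociclib. The share of PLOD2 went from 26.7% ± 1.89 to 37.8% ± 0.444 with DMSO and 42.4% ± 2.24 with palbociclib, without overlap between libraries, and with ruxolitinib it was 35.7% ± 0.671. PLOD3 went from 22.5% ± 1.01 to 15.3% ± 0.405 with DMSO and 11.0% ± 0.992 with palbociclib. Dividing a library by 1 factor leaves these shares as they are, quantile normalization, for which they were not computed, does not, and they depend on the length used. The merged exons of PLOD2 span 14518 bases, against 3749 in its canonical transcript, and per merged length its share was 14.8% in proliferating cells, below the 24.0% of PLOD3, and 22.4% and 25.8% with DMSO and palbociclib.

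Among the lysyl oxidases, LOX changed most with palbociclib. LOX is the founding member of the family and is secreted as a proenzyme that is cleaved by procollagen C-proteinase. Its counts were 22673, 19908 and 23501 in proliferating cells, 30429, 31407 and 31887 with DMSO, 30770, 31535 and 31198 with ruxolitinib, and 71724, 63164 and 66715 with palbociclib. The lowest palbociclib library was well above the highest of any other group, and DMSO and ruxolitinib libraries interleaved. The mean rose 1.42-fold from 22028 ± 1881 to 31241 ± 743 with DMSO (log2 fold change 0.51, SE 0.064, adjusted p = 2.97e-06). It rose a further 2.15-fold to 67201 ± 4301 with palbociclib (1.10, SE 0.064, adjusted p = 2.51e-09), and 58 of 11242 tested genes, LOX among them, had an increase at least as large (0.516%). Ruxolitinib left it at 31168 ± 383, with a 95% interval for the log2 difference from DMSO of -0.14 to 0.13 (adjusted p = 0.99).

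LOXL4 is far less abundant. It lies at chr10:98247690-98268194 on the minus strand. Its counts were 213.7, 236.2 and 262.8 in proliferating cells, 519.7, 593.1 and 446.3 with DMSO, 530.8, 525.0 and 490.0 with ruxolitinib, and 752.5, 766.3 and 731.9 with palbociclib. The groups stood apart except DMSO and ruxolitinib. LOXL4 rose 2.18-fold after irradiation (log2 fold change 1.12, SE 0.10, adjusted p = 4.34e-08). It was the only one of the 8 genes past 2-fold in that comparison. An increase at least as large was found for 1070 of all tested genes (9.52%), so its size does not set LOXL4 apart. Palbociclib raised it 1.45-fold over DMSO (0.54, SE 0.10, adjusted p = 0.00034), so that it was 3.16-fold above proliferating cells. A lncRNA on the other strand shares 152 of its exon bases (4.2%).

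LOXL2, which crosslinks collagen IV of basement membranes and is raised in lung fibrosis, fell with irradiation and rose with palbociclib. Its counts were 26477, 25582 and 26672 in proliferating cells, 19244, 20027 and 20011 with DMSO, 22825, 21819 and 22778 with ruxolitinib, and 32397, 31303 and 32973 with palbociclib. The 4 groups did not overlap. DMSO was lowest, at 19761 ± 447, and proliferating cells were at 26244 ± 581 (log2 fold change -0.41, SE 0.046, adjusted p = 8.54e-07). Palbociclib, at 32224 ± 848, was 1.63-fold above DMSO (0.71, SE 0.046, adjusted p = 9.3e-09) and 1.23-fold above proliferating cells (0.30, adjusted p = 2.72e-05). Ruxolitinib, at 22474 ± 567, lay between DMSO and proliferating cells (0.19 above DMSO, SE 0.046, adjusted p = 0.0301). After quantile normalization LOXL2 no longer differed from proliferating cells with palbociclib (0.06, adjusted p = 0.252), and scaling to the same total brought its fall with irradiation to -0.18 (adjusted p = 0.00147).

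LOXL1, needed for elastic fibre renewal and bound to tropoelastin through fibulin-5, was likewise lowest with DMSO but, unlike LOXL2, was not above the proliferating level with palbociclib. It lies at chr15:73925989-73952137 on the plus strand. Its counts were 3251, 3935 and 3566 in proliferating cells, 2232, 2190 and 2433 with DMSO, 2572, 2598 and 2629 with ruxolitinib, and 3096, 3447 and 3705 with palbociclib. Palbociclib and proliferating libraries overlapped, and all others stood apart. LOXL1 fell by 0.65 on the log2 scale after irradiation (SE 0.073, adjusted p = 9.94e-07) and was higher by 0.58 with palbociclib than with DMSO (adjusted p = 1.37e-05). Palbociclib and proliferating cells did not differ beyond the spread (-0.07, 95% interval -0.23 to 0.09, adjusted p = 0.409). With ruxolitinib LOXL1 was 0.19 above DMSO, which was not called over all 12 libraries (adjusted p = 0.205). It was called when only those 2 groups were fitted (adjusted p = 0.00141). That fit called 835 of 11424 tested genes higher, against 124 of 11242 over all 12 libraries. LOXL1-AS1, on the other strand, shares 335 exon bases (9.2%) of LOXL1.

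LOXL3 was the only one of the 8 genes called lower with palbociclib than with DMSO. It lies at chr2:74532258-74555690 on the minus strand. Its counts were 236.6, 280.6 and 278.1 in proliferating cells, 263.3, 203.6 and 266.0 with DMSO, 229.2, 230.5 and 233.7 with ruxolitinib, and 176.0, 166.4 and 203.4 with palbociclib. The highest palbociclib library was just below the lowest DMSO library, A117, and proliferating and DMSO libraries overlapped. The log2 fold change was -0.42 for palbociclib against DMSO (SE 0.12, adjusted p = 0.00767) and -0.12 for DMSO against proliferating cells (95% interval -0.37 to 0.12, adjusted p = 0.345). HTRA2, on the other strand, shares 936 exon bases (20.7%) of LOXL3, so without a known strand setting part of these reads cannot be assigned. HTRA2 itself was at 249.3 ± 21.6 in proliferating cells, 247.7 ± 34.6 with DMSO and 240.2 ± 18.3 with palbociclib.

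Per kilobase of canonical transcript, LOX and LOXL2 made up most of the lysyl oxidase RNA in every group. The family sum was 13058 ± 426 in proliferating cells, 12650 ± 287 with DMSO, 13494 ± 98.2 with ruxolitinib and 23613 ± 936 with palbociclib. The make-up of the sum differed between these groups. LOX went from 33.2% ± 1.83 of the sum to 48.7% ± 0.0627 with DMSO and 56.0% ± 1.60 with palbociclib, and LOXL2 from 54.0% ± 0.693 to 42.0% ± 0.298 and 36.7% ± 0.893. LOX was below LOXL2 in all 3 proliferating libraries and above it in the DMSO and palbociclib libraries. With ruxolitinib the shares were 45.5% ± 0.783 for LOX and 44.8% ± 0.861 for LOXL2. LOXL1 took 11.7% in proliferating cells, 7.70% with DMSO and 6.18% with palbociclib. LOXL3 and LOXL4 each stayed below 1.5% in every group. Per merged exon length, LOX took 41.7% in proliferating cells, 57.5% with DMSO, 54.4% with ruxolitinib and 64.6% with palbociclib. LOXL2 then took 46.5%, 34.0%, 36.7% and 29.0% in that order, so the near-equal shares with ruxolitinib depend on the length used. The family sum per merged length was 9431 ± 367, 9711 ± 218, 10234 ± 51.8 and 18581 ± 814, higher with DMSO than in proliferating cells instead of lower.

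**Figure D3:**
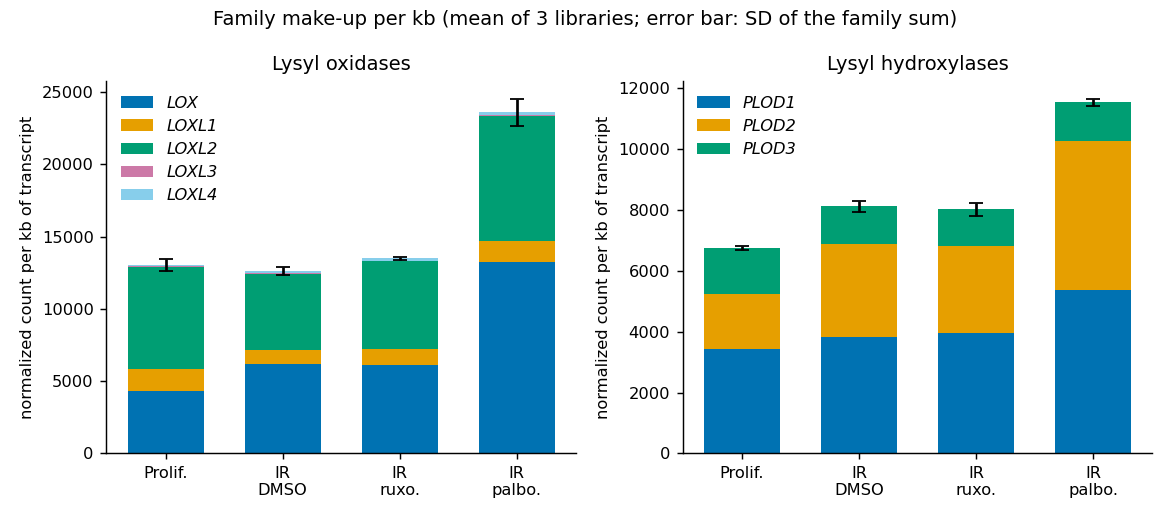
Normalized counts per kilobase of canonical transcript, stacked by gene within each family (mean of 3 libraries; error bar, SD of the family sum). The lysyl oxidase sum is similar in proliferating, DMSO and ruxolitinib cells and higher with palbociclib, and the LOX and PLOD2 segments are largest with palbociclib.

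The inhibitors were also compared directly, at the same dose and days. Palbociclib was higher than ruxolitinib for 6 of 8 genes, where 22.8% of tested genes were, and lower for 1 of 8, LOXL3, where 17.6% were. LOX differed by 1.11 on the log2 scale (SE 0.064, adjusted p = 3.48e-09), PLOD2 by 0.77 (adjusted p = 7.35e-08) and LOXL2 by 0.52 (adjusted p = 3.91e-07). PLOD3 did not differ beyond the spread (0.08, 95% interval -0.05 to 0.20, adjusted p = 0.324), but it was called higher with palbociclib when library A119 was left out (0.15, adjusted p = 0.0284). LOXL3 lost its call after quantile normalization, which left 6 higher, and without any 1 of libraries A119, A120, A122, A123 or A124 (adjusted p 0.0521 to 0.0809). The difference in LOXL1, 0.39, came to 0.19 with the same total and was then not called (adjusted p = 0.0513), which left 5 of 8 higher and 1 lower. For all genes, the same total turned the split from 2561 higher and 1983 lower to 847 and 4535, and quantile normalization to 1953 and 1931.

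Against proliferating cells, palbociclib-treated cells had 5 of 8 genes higher, where 35.2% of tested genes were, and 2 of 8 lower, LOXL3 and PLOD3, where 38.6% were. LOX was 3.05-fold, PLOD2 2.72-fold and PLOD1 1.57-fold the proliferating level. Scaled to the same upper quartile the fall of PLOD3 was -0.13 (adjusted p = 0.0658), which left 5 higher and 1 lower. Of all 11252 genes tested with that scaling 4732 were higher and 3561 lower. Ruxolitinib-treated cells had 4 of 8 genes higher than proliferating cells, where 32.6% of tested genes were, and 3 of 8 lower, where 39.5% were, with LOX at 0.50, LOXL4 at 1.12, LOXL1 at -0.46 and PLOD3 at -0.34. The fall of LOXL2, -0.22, was not called at the same total (-0.02, adjusted p = 0.697), nor was that of PLOD3 (-0.13, adjusted p = 0.0641), which left 4 higher and 1 lower. Of all 11262 genes tested at the same total 5050 were higher and 3136 lower. All comparisons with DMSO or with proliferating cells share those 3 control libraries, so their values are not independent of each other.

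COL1A1, the main substrate of these enzymes, fell further after irradiation than any of the 8 genes (log2 fold change -1.28, adjusted p = 1.87e-11). This gene, which encodes the α1 chain of type I collagen, was at 401324 ± 11839 normalized counts in proliferating cells, 165728 ± 2083 with DMSO, 231249 ± 1946 with ruxolitinib and 268524 ± 7037 with palbociclib. LOX counts per 1000 COL1A1 counts, a ratio unchanged by dividing a library by 1 factor (but not by quantile normalization), were 55.0 ± 6.23 in proliferating cells, 189 ± 6.14 with DMSO, 135 ± 2.07 with ruxolitinib and 251 ± 21.6 with palbociclib, and no 2 groups overlapped. PLOD2 per 1000 COL1A1 counts was 16.8 ± 1.59, 69.4 ± 1.40, 46.5 ± 2.38 and 68.4 ± 5.39 in the same order, so that DMSO and palbociclib overlapped. The ratio of LOXL2 was 65.5 ± 3.33 in proliferating cells, 119 ± 3.38 with DMSO and 120 ± 4.17 with palbociclib, again with overlap. PLOD1 was at 25.5 ± 0.645 in proliferating cells, 68.4 ± 1.84 with DMSO and 59.6 ± 0.435 with palbociclib, every palbociclib library being below the DMSO ones. That of PLOD3 was 10.7 ± 0.314, 21.1 ± 0.685 and 13.3 ± 0.887. Of these 5 genes LOX alone had all palbociclib libraries above the DMSO ones, and in all 5 every irradiated library was above the proliferating ones. The fall of COL1A1 raises the ratio of any gene that fell less, and LOXL2 and PLOD3 fell in their own counts after irradiation. Ratios of LOXL1, LOXL3 and LOXL4 were not computed, so these counts do not cover all 8 genes. With ruxolitinib, where COL1A1 was called higher than with DMSO (log2 fold change 0.48, adjusted p = 6.33e-05), the ratios of all 5 were below those with DMSO. None of the 8 genes rose by more than 0.19 there, so the rise of COL1A1 lowers all of these ratios. The picture differed against COL1A2 in place of COL1A1. The PLOD2 ratio was 29.8 ± 2.87 in proliferating cells, 90.6 ± 1.95 with DMSO, 65.9 ± 2.51 with ruxolitinib and 78.6 ± 5.41 with palbociclib. The LOXL2 ratio was 151 to 161 with DMSO and 132 to 141 with palbociclib, and that of PLOD1 86.3 to 91.7 and 67.3 to 70.4, so that PLOD1, PLOD2 and LOXL2 were all lower with palbociclib, without overlap. LOX remained higher, at 267 to 312 against 238 to 257. The ratio of PLOD3 with palbociclib (14.0, 16.1 and 15.8) lay below the proliferating libraries (18.5, 19.2 and 18.9). The ratios are given as a description, with no test. The share of all tested genes with any of these patterns was not computed, so counts of genes by ratio are no result about these enzymes.

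**Figure D4:**
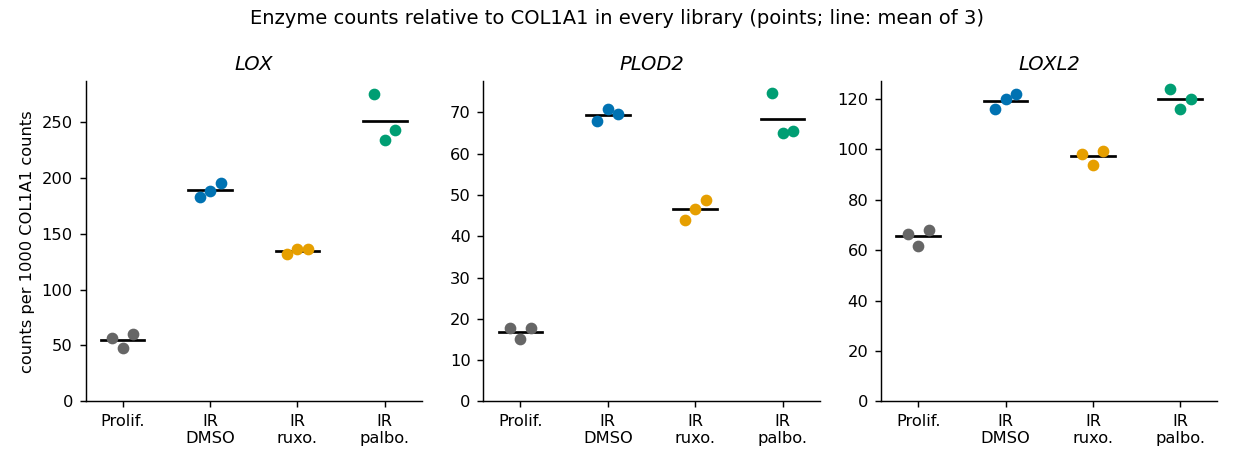
Counts of LOX, PLOD2 and LOXL2 per 1000 COL1A1 counts in every library (points; line, mean of 3). All irradiated libraries lie above the proliferating ones, the palbociclib libraries are the highest for LOX, and for PLOD2 and LOXL2 they overlap the DMSO libraries. COL1A1 itself fell after irradiation, and the share of all tested genes with these patterns was not computed.

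The other genes of collagen maturation were taken as 9 lists, of which 76 genes were tested. Their counts stand beside 33.0% higher and 39.3% lower among all tested genes after irradiation and 26.0% and 22.3% with palbociclib. With so few genes in a list a share near these is no result about it, as for the chaperones, proteoglycans and hypoxia targets after irradiation. Scaled to the same total, 5289 of 11262 tested genes were higher and 2970 lower after irradiation, and 940 higher and 5176 lower with palbociclib. Quantile normalization gave 2672 higher and 2255 lower of 11237 with palbociclib. The fibrillar collagens fell with irradiation in 7 of 8 cases and rose in 1, COL11A1, with COL5A3 at -3.32 and COL3A1 at -1.97 on the log2 scale (list median -0.97, all genes -0.05). With palbociclib 6 of 8 rose over DMSO, COL1A2 by 0.88 and COL5A1 by 0.81, and the list median was 0.66. Of the prolyl hydroxylases and their partners, which hydroxylate collagen prolines for triple helix stability or cooperate in it, 2 of 9 rose with irradiation and 5 fell, among them P3H2 at 0.54 and P3H1 at -0.82. All 9 were called higher with palbociclib, by a list median of 0.27 with P3H4 at 0.60, but 2 of 9 were at the same total and 3 of 9 after quantile normalization. Among chaperones, export factors and glycosyltransferases 4 of 9 rose and 5 fell with irradiation, and SERPINH1, the collagen chaperone HSP47, fell by 1.72. With palbociclib 4 of those 9 rose and 1 fell, against 1 and 3 at the same total, with FKBP10, a partner of PLOD2 in telopeptide hydroxylation, at 0.39.

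Of the proteases and enhancers that cleave procollagen or pro-LOX, 1 of 5 rose (TLL2, listed at 0 in all proliferating libraries) and 4 fell with irradiation, and PCOLCE, the procollagen C-proteinase enhancer, fell by 2.78. With palbociclib 1 rose and 2 fell, with ADAMTS2 at 0.64. Elastic fibre substrates and LOX scaffolds had 3 of 15 higher and 9 lower after irradiation, with ELN, which encodes elastin, at -3.51. With palbociclib 9 of 15 rose, 5 at the same total, and 2 fell, with ELN at 1.13 and periostin, POSTN, at -2.43. Proteoglycans of fibril assembly had 2 of 5 higher and 2 lower after irradiation, and 3 of 5 rose with palbociclib, with decorin, DCN, at 1.02 and BGN at 0.94. Of the copper delivery genes, which supply the metal that lysyl oxidases need, 5 of 7 rose after irradiation and 1 fell, with ATP7B at 0.96 and the copper importer SLC31A1 at 0.70. With palbociclib 3 of 7 rose, 1 at the same total, with ATOX1 at 0.47.

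Genes commonly used as hypoxia targets did not move one way in the main fit. After irradiation 5 of 15 rose and 4 fell, BNIP3L at 0.55 and LDHA at -0.74. At the same total these counts were 10 and 1, at the same upper quartile 8 and 1, and after quantile normalization 7 and 1. With edgeR and with DESeq2 they were 7 and 2. Over all tested genes the upper quartile gave 4788 and 3386 of 11252, and quantile normalization 4205 and 3842 of 11237. Of 11242 genes, edgeR gave 4103 and 4047, and DESeq2 4029 and 3981. With palbociclib 8 of 15 rose and 5 fell, SLC2A1 at 0.64 and CA12 at -1.08, and at the same total 2 rose and 7 fell. Of all 11262 genes tested at the same total, 5289 rose and 2970 fell after irradiation, and 940 rose and 5176 fell with palbociclib. The other crosslinkers tested were TGM1, TGM2 and PXDN. The transglutaminase TGM2 rose by 1.79 after irradiation and was lower by 0.30 with palbociclib than with DMSO, while the peroxidase PXDN, which crosslinks collagen IV, was at -0.41 and 0.43. Over all 9 lists ruxolitinib gave 4 of 76 genes higher than DMSO and 5 lower, beside 1.10% and 3.42% of all tested genes. COL1A1, COL1A2 (0.36), COL3A1 (0.21) and ELN (0.57) were the higher ones, and TGM2 (-0.46), VEGFA (-0.29), CA12 (-0.49), LUM (-0.18) and ADAMTS3 (-0.70) the lower ones.

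**Figure D5:**
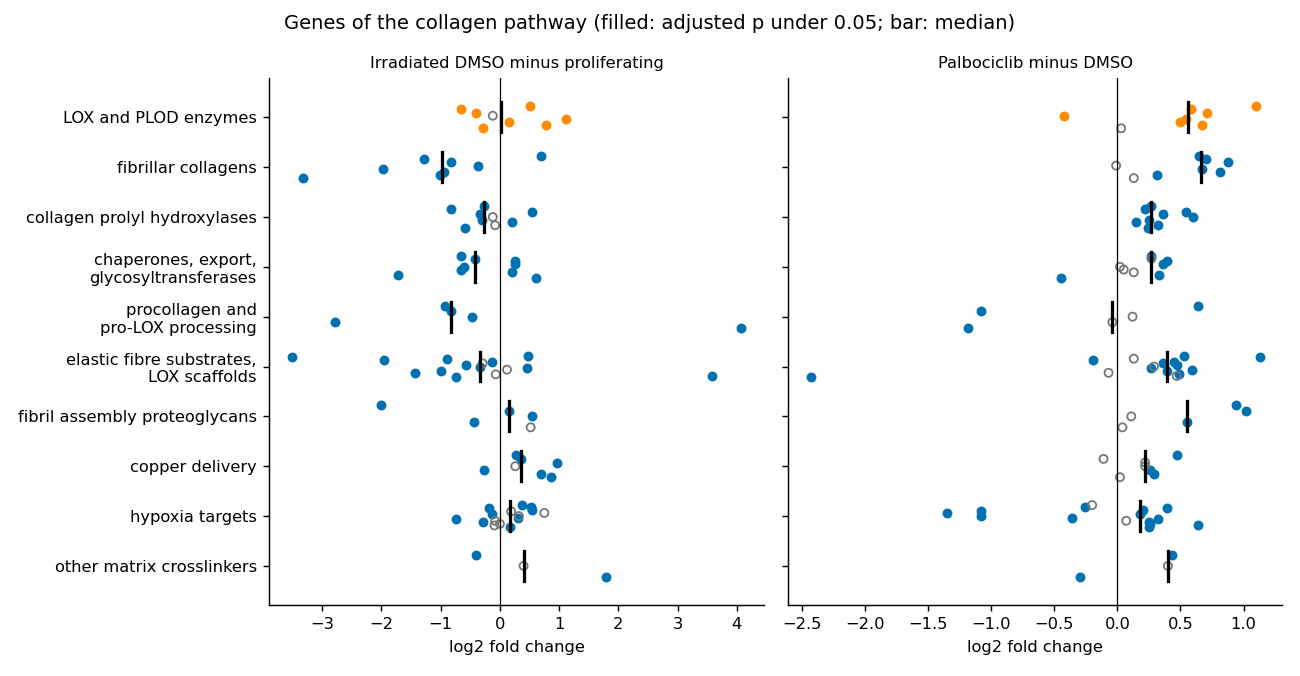
Log2 fold change of each tested gene of the 9 lists and of the 8 LOX and PLOD genes (points; filled, adjusted p under 0.05; bar, list median) for DMSO against proliferating cells and palbociclib against DMSO. Fibrillar collagens lie mostly left of 0 in the first panel and right of it in the second, and the points beyond 3 in the first panel are TLL2 and MFAP5, which had at most 3 reads in proliferating libraries, so that their fitted values are no measured folds.

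Over the 12 libraries the genes whose log2 levels followed the 8 most closely differed from member to member. Pearson's r is given as a description, since the libraries fall into the same 4 groups and share their scaling. PLOD2 was closest to P3H2, a collagen prolyl 3-hydroxylase (r = 0.997), and then to LEPROT and TRAM1. LOX was closest to DDAH1 (0.996), TM9SF3 and EFEMP1. LOXL2 followed SPARC (0.995), whose counts were 71340 ± 1950 in proliferating cells, 52807 ± 1633 with DMSO, 60514 ± 1419 with ruxolitinib and 92780 ± 1699 with palbociclib, the same order as its own. PLOD1 was closest to THY1 (0.995) and had DCN among its 3 closest (0.988), and LOXL4 to MFSD1 (0.991), CYP51A1 and ANKRD1. For LOXL1 the closest gene was MAP7D1 (0.976), for PLOD3 KLF2 (0.977) and for LOXL3, the lowest of the 8 per kilobase in 3 of 4 groups, AHRR (0.91).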

How the data were processed

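The authors deposited 1 table of normalized counts, a signal per Entrez gene in 12 libraries. Per the submitters' processing notes, Trimmomatic 0.38.1, HISAT2 2.2.1, featureCounts 2.0.3 and DESeq2 2.11.40.8 were used with GRCh38. The annotation and the strand setting are not given in the sources used here. The table ends at Entrez gene 140467, and genes beyond it were not analysed here. All 160380 values above 0 (100%) were whole multiples of 1 read, at a tolerance of 0.01, so whole reads were recovered. Column names carry the group and a library number, and no replicate number.

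Log2(value + 1) of the 11242 genes with a mean of at least 10 was fitted with limma 3.58.1 (R 4.3.3, 4 group means over 12 libraries, variance trend), which understates changes of low genes. P-values were adjusted (Benjamini-Hochberg) over all tested genes, and a gene was called under 0.05. The fit was tested on simulated data. Alternatives were other pseudocounts (0.1 and 5), filters, scalings, variance models, call rules and libraries, and edgeR 4.0.16 and DESeq2 1.42.0 on recovered reads. The members and lists were chosen with earlier results of these data known. Named genes were the 8 members, up to 4 called genes of largest change per list and comparison (not all printed), COL11A1, TGM1 and others named to complete a small count, and the 3 genes closest to each member by Pearson's r. Positions and lengths come from GENCODE 44 and promoters from RefSeq (GRCh38.p14).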

Additional observations from a re-analysis of the deposited data

How the results depend on the processing

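Of the tests of single genes under the alternatives, 1052 kept direction and side of the threshold, 25 lost and 3 gained a call and 24 reversed. The values that reversed were these. PLOD3 for palbociclib against DMSO was -0.20 with the same total, -0.0024 with the same upper quartile, -0.14 after quantile normalization, and -0.02 and -0.00037 without A120 and A121. Against ruxolitinib it was -0.12 with the same total and -0.07 after quantile normalization. LOXL3 was 0.10, 0.03 and 0.0019 for DMSO against proliferating cells (same total, same upper quartile, without A117), and 0.01 for ruxolitinib against proliferating cells with the same total. LOX for ruxolitinib against DMSO was 0.01 with the same upper quartile, 0.0013 by edgeR, and 0.00079 to 0.01 without A117, A118 or A122. LOXL4 in that comparison was 0.01 (upper quartile), 0.03 (quantiles) and -0.11 to 0.10 without 1 library, above 0 without A116 (0.0011), A117 or A124. LOXL1 for palbociclib against proliferating cells was 0.06 (upper quartile), and 0.00089 and 0.00027 without A126 and A119. The cause was not tested.

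Asking for at least 2-fold as well left 1 gene higher and 0 lower after irradiation, and 1 and 0 for palbociclib against DMSO. With that rule palbociclib gave 1 and 0 against ruxolitinib, and 3 and 0 against proliferating cells. Ruxolitinib then gave 0 higher against DMSO, and 1 higher and 0 lower against proliferating cells. The share of all tested genes passing the 2-fold rule, or an adjusted p under 0.01, was not computed. Counts under these 2 rules are therefore no result about the genes followed here. Palbociclib against DMSO gave 2 lower with the same total and 0 after quantile normalization, and against ruxolitinib 0 lower after quantile normalization or at an adjusted p under 0.01, and 0 to 1 lower without 1 library. Against proliferating cells 1 was lower with the same upper quartile for palbociclib and 1 with the same total for ruxolitinib. Over all tested genes palbociclib against DMSO gave 5176 lower of 11262 with the same total and 2255 of 11237 after quantile normalization. Against ruxolitinib it gave 1931 lower of 11237 after quantile normalization and 1536 to 2159 without 1 library. Against proliferating cells 3561 of 11252 were lower for palbociclib at the upper quartile, and 3136 of 11262 for ruxolitinib at the same total. Ruxolitinib against DMSO gave 0 higher with no filter, after quantile normalization, without a trend or at an adjusted p under 0.01, and 0 to 1 without 1 library. With only the 2 groups fitted it gave 2 higher and 1 lower. That fit called 835 of 11424 tested genes higher and 996 lower, against 124 and 384 of 11242 in the main fit. With 3 libraries per group, small differences are limited by the spread between them, widest for LOXL3 and LOXL4, the genes with the fewest reads. No paired analysis was possible because the column names carry no replicate numbers, so the replicate block was not run.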

Other observations

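In palbociclib-treated cells 5 of 8 fibrillar collagens were lower than in proliferating cells, where 38.6% of all tested genes were. COL1A1 (-0.58 on the log2 scale), COL3A1 (-1.31) and COL5A2 (-0.70) were so although they were higher than with DMSO. COL5A3 (-3.19) and COL27A1 (-0.38) were not called against DMSO, and COL11A1 was higher than in proliferating cells, at 1.35 (284.7 ± 39.3 and 728.3 ± 101 normalized counts). SERPINH1, the collagen chaperone, was at 7185 normalized counts against 18835 (log2 fold change -1.39, limma adjusted p = 1.07e-11). Of the procollagen and pro-LOX processing genes 4 of 5 were lower, PCOLCE at -2.82, and 1, TLL2, was higher. Periostin, POSTN, a scaffold for the protease that activates LOX, went from 1212 to 135.0 normalized counts.

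Of the copper delivery genes 5 of 7 were higher than in proliferating cells, where 35.2% of all tested genes were, with a list median of 0.75 beside -0.03 over all tested genes. ATP7A (adjusted p = 0.143) and MEMO1 (0.971) were not called by limma. SLC31A1 was at 0.99, SLC31A2 at 0.90, ATP7B at 1.18 and ATOX1 at 0.75. Between 5 and 6 of these 7 were higher with the same total, upper quartile or quantiles. Over all genes those scalings gave 3985 of 11262, 4732 of 11252 and 4471 of 11237 higher, in that order. The transglutaminase TGM2 was higher (1786 and 5039 normalized counts), as was P3H2, the gene closest to PLOD2 (1.08).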
